A study of Mus musculus with 9 samples.

Results

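10 imprinted genes that act on growth, differentiation or secretion were followed through a mouse model of pancreatic neuroendocrine tumour: Nnat, Dlk1, Igf2, Peg3, Peg10, Mest, Ndn, Cdkn1c, Plagl1 and Grb10. They were chosen by name, as the rows of the expression table that carry these symbols, and they are 10 of the 21944 genes kept from that table. 9 of them were among the 12854 genes that were tested, and Peg10 lay below the filter of 1 FPKM in at least 3 libraries. FPKM counts fragments relative to transcript length in kilobases and to the size of the library, so it corrects for both.

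Total RNA of 9 samples in 3 groups of 3 was sequenced. N134 is a cell line from a pancreatic neuroendocrine tumour of the mouse. N134-RHAMMB (N134_RHB in the labels) carries the name of RHAMMB, 1 of the isoforms of RHAMM, a hyaluronan receptor whose gene is Hmmr. The N134 tumours 1, 2 and 3 and the tumours 1, 2 and 4 of N134-RHAMMB, here called RHAMMB tumours, grew under the skin. The metastases 1, 2 and 3 were collected from the livers of mice that had received N134-RHAMMB cells. Cells were given subcutaneously or by the tail vein. The labels give both routes for all samples together and do not tie a route to a group. All hosts were NSG mice (NOD.Cg-PrkdcscidIl2rgtm1Wjl/SzJ), which carry the Prkdc scid mutation and an Il2rg allele and have no mature lymphocytes, while their macrophages, fibroblasts and vessels remain. No N134 liver metastasis is among the samples, so the effect of the site and that of the line cannot be told apart between metastases and N134 tumours. The labels name 1 line of each kind, give neither the age nor the sex of the hosts, and do not state that replicates came from separate animals. The p-values therefore measure only how these samples vary, and that variation may be technical.

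Imprinted genes are read from 1 parental allele only, as set by DNA methylation placed in the germ line. Nnat, Dlk1, Igf2, Peg3, Peg10, Mest, Ndn and Plagl1 are expressed from the paternal allele in most tissues, while Cdkn1c is expressed from the maternal allele, as is Grb10 outside the nervous system. Many paternally expressed genes promote growth and many maternally expressed ones restrain it, and in the pancreatic islet Nnat takes part in the processing of preproinsulin while Igf2 is a growth factor of fetal islets and of islet tumours. FPKM adds the alleles, so these values say nothing of which allele was read.

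The whole table bears on these genes in a few ways. Estimated depth was 14.7 to 18.1 M fragments per library. Hmmr, the gene of RHAMM, was at 39.2 to 44.9 FPKM in the N134 tumours, 49.2 to 51.3 in the RHAMMB tumours and 36.0 to 43.3 in the metastases. Its RHAMMB tumours were thus all above the N134 tumours, but the difference did not pass the test (log2 difference 0.25, SE 0.10, limma adjusted p = 0.354), and the table does not separate the isoform from endogenous Hmmr. All 13 islet markers checked were at or above 1 FPKM in every library, with summed levels of 38241 to 42250 FPKM in the N134 tumours, 32407 to 38094 in the RHAMMB tumours and 43973 to 48985 in the metastases, so the libraries carry the RNA of an insulin-producing line. Markers of hepatocytes summed to 379 to 470, 344 to 449 and 6351 to 6682 FPKM in the same order of groups. In the subcutaneous groups most of this sum was Ttr, with means of 392 and 333 FPKM, against 513 in metastases. Alb had means of 1.33, 0.629 and 1508 FPKM in the 3 groups. Metastasis 2 stood apart from the other metastases for several of the genes below, and RHAMMB tumours 2 and 4 had summed skeletal muscle markers of 188 and 232 FPKM against 8.29 to 22.7 in the other 7 libraries. Where leaving out these libraries changed a call, the value without them is given too. For RHAMMB against N134 tumours, leaving out a metastasis keeps the difference itself and changes only the shared estimate of spread and the genes tested. Without metastasis 2 the genes called in that comparison rose from 25 to 191. In bulk tissue, fewer cells of a type and less RNA per cell cannot be told apart.

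The 3 sequences below are shown because Peg3 shares its start region with its neighbour Usp29, and because Nnat and Plagl1 are the members that differed between groups. Each comes from the RefSeq promoter window (GRCm38.p6, 250 bases before to 50 after the RefSeq start). It is the longest run before that start that is free of annotated exons. The Plagl1 window lies inside the annotated gene, which starts at 13060504, and the Nnat window also holds exon sequence of Blcap. Each piece is read in the direction of the named gene, with CpG sites, the target of DNA methylation, in capitals. Nnat chr2:157560008-157560077, plus strand:
Nnat: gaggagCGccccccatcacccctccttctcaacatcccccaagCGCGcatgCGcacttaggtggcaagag
Plagl1 chr10:13090582-13090690, plus strand:
Plagl1: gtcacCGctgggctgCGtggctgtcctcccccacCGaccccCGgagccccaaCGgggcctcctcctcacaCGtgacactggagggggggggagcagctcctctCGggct
Peg3 chr7:6730432-6730577, minus strand, the whole interval between the annotated starts of Peg3 and Usp29:
Peg3: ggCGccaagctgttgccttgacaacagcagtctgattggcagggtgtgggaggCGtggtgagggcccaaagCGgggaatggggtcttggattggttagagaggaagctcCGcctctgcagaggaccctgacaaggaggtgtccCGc

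These pieces hold 4, 7 and 5 CpG sites. 8 of the 10 members matched at least 1 RefSeq window, with 14 windows in all, and Cdkn1c and Peg10 matched none. Over the full 300 bases the Nnat window had 17 CpG sites, the Plagl1 window 26 and the Peg3 window 13. The median over 32851 windows was 7. Of all windows, 31.4%, 16.9% and 37.9% had at least as many as the Nnat, Plagl1 and Peg3 windows. The Igf2 windows had 7, 24, 14 and 2, the Mest windows 8, 17 and 17, the Dlk1 window 9 and the Ndn window 11. The Grb10 windows had 9 and 45, and 1.93% of all windows had as many as the latter. The letters GGGGCCCC, searched on both strands, occurred in the Peg3 window alone among the 14 and in 1.08% of all windows. The letters CCATNTT, the core of the YY1 motif, also searched on both strands, occurred in the Nnat window, in 1 Igf2 window and in 1 Grb10 window, and in 16.1% of all windows. These are matches of letters in a window, not sites shown to be bound or methylated.

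The levels of the 10 genes spanned more than 4 orders of magnitude. By mean FPKM over the 9 libraries the order was Nnat 5145, Igf2 253, Peg3 167, Plagl1 46.7, Dlk1 19.6, Cdkn1c 17.3, Ndn 10.5, Grb10 6.08, Mest 4.77 and Peg10 0.166. The ranges over libraries of neighbours in this order overlapped, except between Nnat and Igf2, between Peg3 and Plagl1 and between Mest and Peg10. Nnat ranked from 3 to 5 among all genes in each library and took 0.720% to 1.47% of the summed FPKM, so it made up most of the 0.856% to 1.56% held by all 10 members. Igf2 ranked from 128 to 400 and Peg3 from 253 to 468. The steadiest member was Grb10, whose highest library was 1.48 times its lowest, and the most variable of those tested was Dlk1, at 12.4 times.

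**Figure D1:**
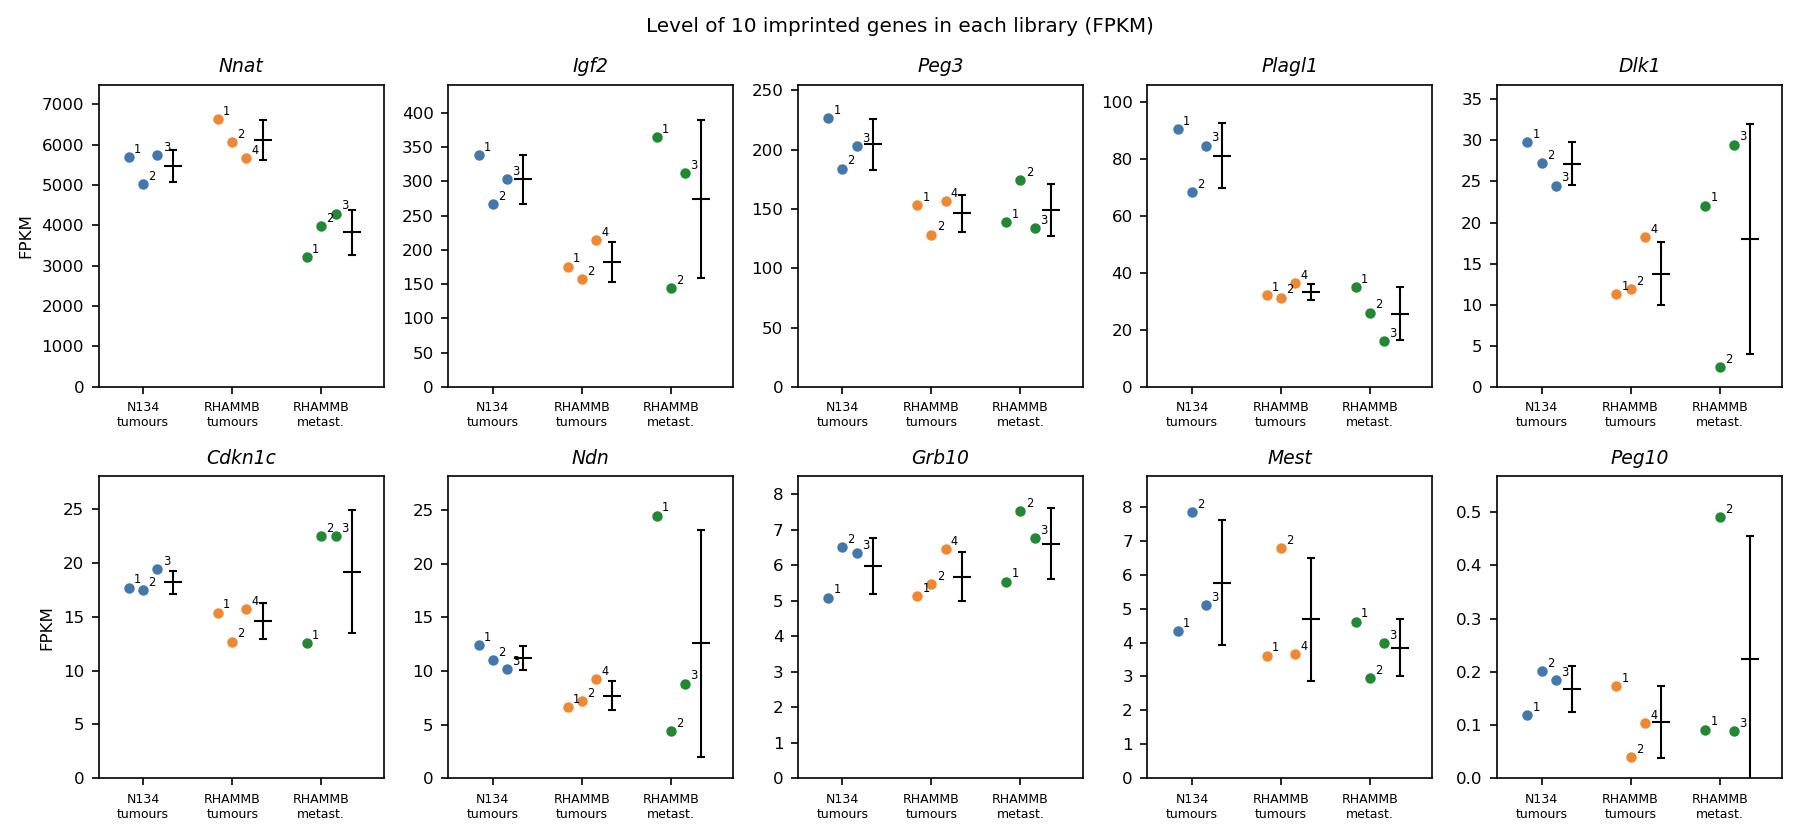
FPKM of each of the 10 genes (vertical axis, linear, from 0, a separate scale for each gene) in the 9 libraries; points are libraries with their replicate number, and the horizontal and vertical bars are the group mean and SD (n = 3 each, cut at 0 for Peg10). Nnat is lowest in the metastases (3212 to 4294), Plagl1 is highest in the N134 tumours (68.2 to 90.4), and metastasis 2 has the lowest Dlk1 (2.41) and Igf2 (144).

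Nnat encodes neuronatin, a small membrane protein of the endoplasmic reticulum that binds the signal peptidase complex in beta cells and aids the cleavage of preproinsulin. The gene lies on chromosome 2 (ENSMUSG00000067786, 157560078 to 157562522, plus strand) inside the span of Blcap on the opposite strand. Its level was 5686, 5021 and 5735 FPKM in N134 tumours 1, 2 and 3, 6641, 6057 and 5671 in RHAMMB tumours 1, 2 and 4, and 3212, 3992 and 4294 in metastases 1, 2 and 3. All 3 metastases lay below all 6 subcutaneous tumours, while the subcutaneous groups overlapped. Nnat fell in metastases relative to RHAMMB tumours, from 6123 ± 489 to 3833 ± 559 FPKM (SD, n = 3 each), a ratio of 0.626 and a log2 difference of -0.68 (SE 0.15, limma adjusted p = 0.0178). Without RHAMMB tumour 1 the adjusted p became 0.103, without RHAMMB tumour 2 it was 0.0647, without metastasis 1 it was 0.0828, and without RHAMMB tumours 2 and 4 it was 0.162 at a log2 difference of -0.80. The call also depended on the fit: the adjusted p was 0.123 with median-of-ratios scaling (difference -0.63), 0.233 with no filter and 0.0773 with only these 2 groups. Against the N134 tumours (5481 ± 399 FPKM) the metastases were 0.699 times as high and the difference of -0.52 (SE 0.15) lay just outside the threshold (limma adjusted p = 0.0514), passing without metastasis 2 (0.0335) or metastasis 3 (0.0392). Between the subcutaneous groups the difference was 0.16 (SE 0.15, limma adjusted p = 0.704). Summed hepatocyte markers were higher in the metastases than in every tumour, as given above, and their part in the lower Nnat was not tested.

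The partners of neuronatin in the secretory entry pathway were looked at as a list of 14 genes, the signal peptidase subunits and the translocon. All 14 were tested and none passed in any comparison by limma. At an unadjusted p below 0.05 there were 3, 1 and 1 of them, in RHAMMB against N134 tumours, metastases against RHAMMB tumours and metastases against N134 tumours, in that order, while 12.8%, 16.7% and 21.4% of all genes tested had such a p in these comparisons. The signal peptidase subunit Sec11c was at 87.3 ± 7.79, 94.6 ± 13.1 and 71.6 ± 20.0 FPKM in N134 tumours, RHAMMB tumours and metastases, and its difference from RHAMMB tumours to metastases was -0.42 (limma adjusted p = 0.280). Metastasis 2 had 93.7 FPKM of Sec11c against 66.4 and 54.7 in metastases 1 and 3, and without it Sec11c passed as lower in metastases, by -0.63 against RHAMMB tumours (adjusted p = 0.0295) and by -0.52 against N134 tumours (adjusted p = 0.0471). For Spcs3, another subunit, the N134 and RHAMMB tumours were at 42.2 ± 2.68 and 57.2 ± 4.07 FPKM, a difference of 0.43 (limma adjusted p = 0.327).

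Mest encodes a hydrolase-like protein of the endoplasmic reticulum known for its rise in growing fat tissue. It lies on chromosome 6 (ENSMUSG00000051855, 30723547 to 30748465, plus strand), and its end overlaps that of Copg2 on the opposite strand. Reads of this overlap could not be told apart without strand information. The values of Mest were 4.33, 7.85 and 5.11 FPKM in N134 tumours 1 to 3, 3.62, 6.77 and 3.65 in RHAMMB tumours 1, 2 and 4, and 4.62, 2.96 and 3.98 in metastases 1 to 3. The groups overlapped in all 3 comparisons and no difference passed, the largest being -0.46 (SE 0.26) between metastases and N134 tumours (limma adjusted p = 0.363).

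Igf2 encodes insulin-like growth factor II, a secreted ligand of the IGF1 and insulin receptors. The gene is on chromosome 7 (ENSMUSG00000048583, 142650766 to 142666816, minus strand), where it overlaps its antisense gene Igf2os and a readthrough gene on the same strand. Reads of the stretches shared with Igf2os could not be told apart without strand information. Strand information would not separate those shared with the readthrough gene. Igf2 was at 339, 266 and 303 FPKM in N134 tumours 1 to 3, at 175, 158 and 214 in RHAMMB tumours 1, 2 and 4, and at 365, 144 and 312 in metastases 1 to 3. Each RHAMMB tumour lay below each N134 tumour, with means of 182 ± 28.6 and 303 ± 36.2 (SD, n = 3 each), but metastasis 2 fell below all subcutaneous tumours while metastasis 1 was above them. The difference of -0.73 (SE 0.29) between RHAMMB and N134 tumours did not pass (limma adjusted p = 0.329), and without metastasis 2 the same difference had an adjusted p of 0.0310. Metastases differed from RHAMMB tumours by 0.49 (SE 0.29, limma adjusted p = 0.466) with all libraries and by 0.90 (adjusted p = 0.00623) without metastasis 2.

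Dlk1 encodes a membrane protein of the Notch ligand family, made by endocrine precursors and beta cells, that can be shed as fetal antigen 1. Its locus is chromosome 12 (ENSMUSG00000040856, 109452823 to 109463336, plus strand). The libraries gave 29.8, 27.2 and 24.5 FPKM in N134 tumours 1 to 3, 11.3, 11.9 and 18.2 in RHAMMB tumours 1, 2 and 4, and 22.1, 2.41 and 29.5 in metastases 1 to 3. As with Igf2, all RHAMMB tumours lay below all N134 tumours and metastasis 2 was lowest of all. The ratio of the highest to the lowest metastasis was 12.2 for Dlk1 and 2.53 for Igf2, against 1.21 and 1.27 among the N134 tumours. For Dlk1 the difference of RHAMMB from N134 tumours was -0.95 (SE 0.65, limma adjusted p = 0.581), and without metastasis 2 its adjusted p was 0.0387. Metastases differed from RHAMMB tumours by -0.11 (SE 0.65, limma adjusted p = 0.960) with metastasis 2 and by 0.87 (adjusted p = 0.0371) without it. Leaving out RHAMMB tumour 4 alone also turned the sign, to 0.09, as did leaving out RHAMMB tumours 2 and 4 (0.12).

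Of the 17 genes listed for Notch signalling, 15 were tested. None passed between the subcutaneous groups, where 2 had an unadjusted p below 0.05 by limma, beside 12.8% of all genes. Dll3, an inhibitory Notch ligand of neuroendocrine tumours, was lower in metastases than in RHAMMB tumours and N134 tumours, at 0.357 ± 0.559, 2.33 ± 0.0249 and 1.77 ± 0.678 FPKM (log2 differences -1.37 and -1.07, limma adjusted p = 0.0118 and 0.0347). The first call was lost without metastasis 1 (0.0834) and without RHAMMB tumours 2 and 4 (0.241). The second was lost when any 1 of N134 tumours 2 and 3, RHAMMB tumours 1, 2 and 4 and metastases 1 and 2 was left out, with adjusted p of up to 0.137. Dll3 was at 0.0355, 0.0334 and 1.003 FPKM in metastases 1 to 3. It passed the filter only through the subcutaneous tumours, so its p-values add little. Metastases and N134 tumours overlapped, since N134 tumour 1 was at 0.993 FPKM. Hes1, a transcriptional target of Notch, was at 5.27 ± 1.15 FPKM in N134 tumours and 7.97 ± 0.703 in metastases (limma adjusted p = 0.127).

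Grb10 encodes an adaptor that binds the insulin and IGF1 receptors and restrains their signal. It lies on chromosome 11 (ENSMUSG00000020176, 11930508 to 12038683, minus strand). Its values were 5.08, 6.50 and 6.35 FPKM in N134 tumours 1 to 3, 5.13, 5.46 and 6.44 in RHAMMB tumours 1, 2 and 4, and 5.53, 7.52 and 6.75 in metastases 1 to 3. The 3 groups overlapped throughout, and the log2 differences were -0.06, 0.18 and 0.12 (SE 0.16 each), none of which passed (limma adjusted p = 0.917, 0.663 and 0.745).

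Plagl1 encodes the zinc finger protein Zac1, which halts the cell cycle in cultured cells and activates other imprinted genes. The gene is on chromosome 10 (ENSMUSG00000019817, 13060504 to 13131694, plus strand). Levels were 90.4, 68.2 and 84.6 FPKM in N134 tumours 1 to 3, 32.2, 31.3 and 36.4 in RHAMMB tumours 1, 2 and 4, and 34.9, 26.0 and 16.2 in metastases 1 to 3. Every sample of the N134-RHAMMB line, under the skin or in the liver, lay below every N134 tumour, whereas the RHAMMB tumours and metastases overlapped. Plagl1 fell in metastases relative to N134 tumours, from 81.1 ± 11.5 to 25.7 ± 9.36 FPKM (SD, n = 3 each), a ratio of 0.317 and a log2 difference of -1.68 (SE 0.23, limma adjusted p = 6.74e-04). This call was kept in all 20 alternatives run, with differences of -1.92 to -1.39 and adjusted p of 4.94e-04 to 0.00559. RHAMMB tumours, at 33.3 ± 2.74 FPKM, had 0.411 times the level of N134 tumours, but the difference of -1.25 (SE 0.23) did not pass the threshold over all genes (limma adjusted p = 0.0760). It passed when only these 2 groups were fitted (0.00357) and without metastasis 1 (0.0381), 2 (0.0334) or 3 (0.0221), and over all alternatives its adjusted p ran up to 0.580. Metastases and RHAMMB tumours differed by -0.42 (SE 0.23, limma adjusted p = 0.416).

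Cell type markers of the host also differed between the groups in which Plagl1 differed. Summed markers of fibroblasts were 715 to 969 FPKM in N134 tumours, 335 to 572 in RHAMMB tumours and 247 to 474 in metastases, and those of macrophages were 467 to 798, 341 to 454 and 215 to 366. In metastases against N134 tumours 6 of 10 fibroblast markers and 8 of 10 macrophage markers were called lower, beside 4.23% of all genes, and in RHAMMB against N134 tumours 2 of 10 and 0 of 10 beside 0.117%. No fibroblast or macrophage marker was at 0 in all libraries of a group. Adipocyte markers summed to 67.2 to 88.5, 42.2 to 113 and 24.6 to 28.4 FPKM, with Adipoq and Plin1 listed at 0 in all metastases. Their part in the lower Plagl1 was not tested.

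Peg3 encodes a large zinc finger protein expressed in endocrine tissue and brain. It lies on chromosome 7 (ENSMUSG00000002265, 6703892 to 6730431, minus strand), head to head with Usp29 across the interval printed above. Its libraries held 227, 184 and 203 FPKM in N134 tumours 1 to 3, 153, 128 and 157 in RHAMMB tumours 1, 2 and 4, and 139, 174 and 133.8 in metastases 1 to 3. All 6 samples of the N134-RHAMMB line were below all N134 tumours. Neither difference from N134 tumours passed: it was -0.48 (SE 0.13, limma adjusted p = 0.180) in RHAMMB tumours and -0.46 (SE 0.13, limma adjusted p = 0.0572) in metastases. The latter passed without metastasis 2, at -0.58 and an adjusted p of 0.0145. Metastases differed from RHAMMB tumours by 0.02 (SE 0.13, limma adjusted p = 0.958).

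Ndn encodes necdin, a member of the MAGE family that holds back the cell cycle in neurons. Its locus is chromosome 7 (ENSMUSG00000033585, 62346569 to 62350262, plus strand). The values were 12.4, 11.0 and 10.2 FPKM in N134 tumours 1 to 3, 6.67, 7.23 and 9.26 in RHAMMB tumours 1, 2 and 4, and 24.5, 4.38 and 8.84 in metastases 1 to 3. RHAMMB tumours were again all below N134 tumours, and the metastases spread 5.59-fold, with metastasis 1 above and metastasis 2 below every other library. No difference passed (log2 differences of -0.49, 0.35 and -0.14, SE 0.44 each, limma adjusted p = 0.690, 0.788 and 0.913), and the difference of metastases from RHAMMB tumours turned to -0.25 without metastasis 1. That of metastases from N134 tumours turned to 0.38 without metastasis 2.

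Cdkn1c encodes p57, an inhibitor of cyclin-dependent kinases. It is on chromosome 7 (ENSMUSG00000037664, 143458339 to 143461050, minus strand). The libraries held 17.7, 17.5 and 19.4 FPKM in N134 tumours 1 to 3, 15.4, 12.7 and 15.7 in RHAMMB tumours 1, 2 and 4, and 12.6, 22.5 and 22.5 in metastases 1 to 3. RHAMMB tumours lay below N134 tumours without overlap, by -0.31 (SE 0.20, limma adjusted p = 0.571). Metastasis 1 was below and metastases 2 and 3 were above all subcutaneous tumours, and neither comparison with metastases passed. The 18 genes listed as G1 cyclins, their kinases and inhibitors were all tested, and none passed in any of the 3 comparisons by limma. At an unadjusted p below 0.05 there were 5, 5 and 3 of them, beside 12.8%, 16.7% and 21.4% of all genes. Ccnd2, a G1 cyclin, was at 3.22 ± 1.13 FPKM in N134 tumours and 1.18 ± 0.270 in RHAMMB tumours (log2 difference -0.93, limma adjusted p = 0.133).

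Peg10 encodes a protein derived from a retrotransposon that is needed in the placenta. The locus is chromosome 6 (ENSMUSG00000092035, 4747306 to 4760517, plus strand). The gene was at very low levels, with 0.119, 0.201 and 0.184 FPKM in N134 tumours 1 to 3, 0.174, 0.0393 and 0.103 in RHAMMB tumours 1, 2 and 4, and 0.0914, 0.491 and 0.0892 in metastases 1 to 3. From the depth estimate these are about 3.91 to 59.3 fragments per library, the highest in metastasis 2. Without the filter its log2 differences were -0.08, 0.13 and 0.05, which did not pass (limma adjusted p = 0.844, 0.677 and 0.881).

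Taken by comparison, none of the 9 tested members was called in RHAMMB against N134 tumours, where 0.194% of all 12854 genes were called by limma. 3 of the 9 (Plagl1, Peg3 and Igf2) had an unadjusted p below 0.05, against 12.8% of all genes. 8 of the 9 log2 differences were below 0, with a median of -0.48 against 0.01 over all genes tested. The values of 6 members (Plagl1, Peg3, Igf2, Dlk1, Ndn and Cdkn1c) were lower in every RHAMMB tumour than in every N134 tumour, while 11.3% of all genes had this pattern, and no member had the opposite one. Nnat was the only member with a difference above 0.

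In metastases against RHAMMB tumours 1 of the 9 members, Nnat, was called, and it was lower, where 6.56% of all genes were called and 1.52% were called lower. The members' differences lay from -0.68 to 0.49, 5 above and 4 below 0, with a median of 0.02 against -0.06 over all genes. An unadjusted p below 0.05 was found for 1 of 9 members, against 16.7% of all genes. Nnat was the only one whose groups did not overlap, against 19.8% of all genes in either direction. Among metastases against N134 tumours, 1 of 9 was called, Plagl1, and it was lower, where 9.93% of all genes were called and 4.23% were called lower. 3 members (Nnat, Peg3 and Plagl1) were lower in every metastasis than in every N134 tumour, against 14.3% of all genes, and the median difference was -0.46 against -0.03. 3 of 9 had an unadjusted p below 0.05, against 21.4% of all genes. The 3 comparisons share groups, so their differences are given side by side and no overlap between them is drawn.

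**Figure D2:**
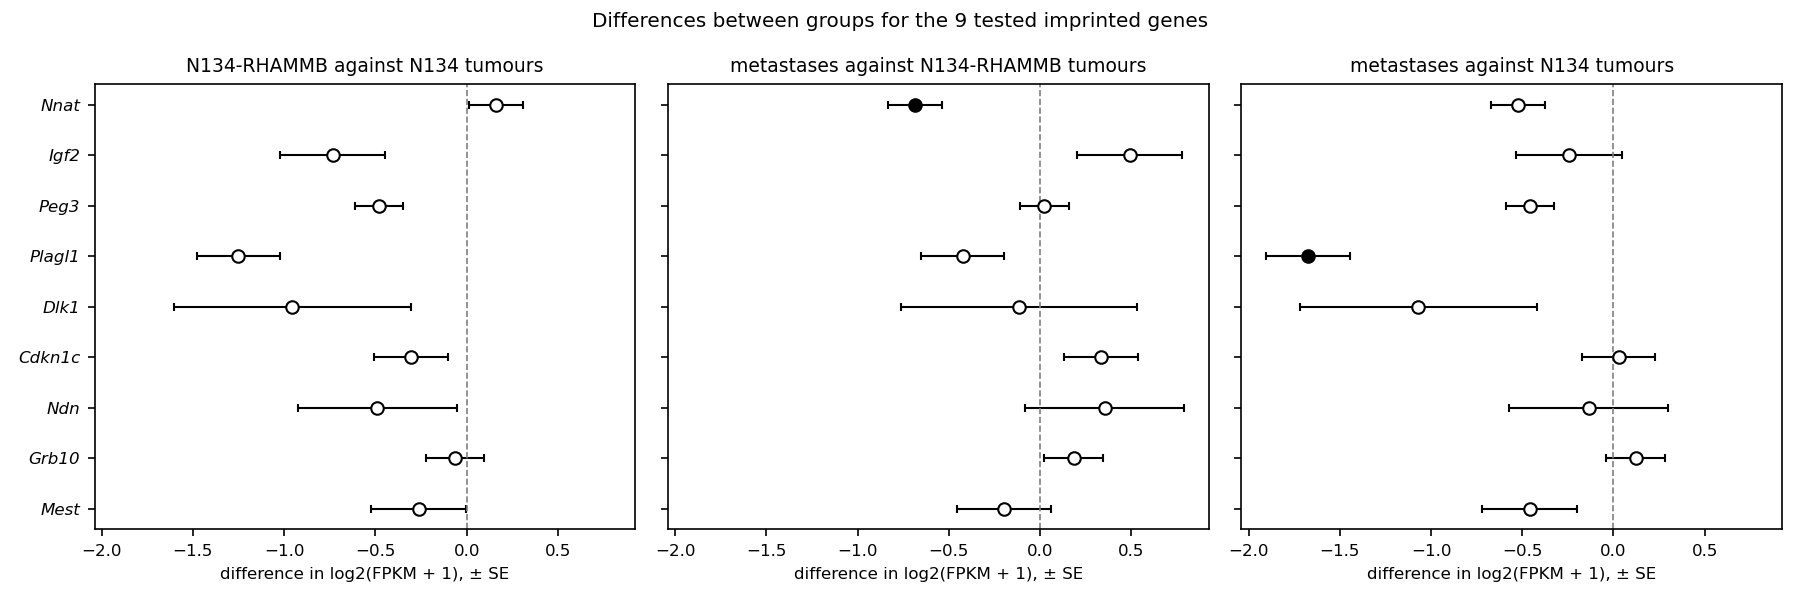
Log2 difference with its SE (horizontal axis, on the log2(FPKM + 1) scale) of the 9 tested members in the 3 comparisons, 1 panel each; filled points have a limma adjusted p below 0.05, and the dashed line marks no difference. The filled points are Nnat at -0.68 in metastases against RHAMMB tumours and Plagl1 at -1.68 in metastases against N134 tumours.

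The members also spread within the groups. The ratio of the highest to the lowest library within a group lay between 1.11 and 1.81 for the 9 tested members in N134 tumours and between 1.16 and 1.87 in RHAMMB tumours, and between 1.30 and 12.2 in metastases. The median ratio over the 9 members was 1.23, 1.26 and 1.79 in N134 tumours, RHAMMB tumours and metastases, beside 1.25, 1.28 and 1.40 over all tested genes above 0 in the group, so genes at large also spread more among the metastases. Mest went the other way, with 1.81, 1.87 and 1.56, and Peg3 (1.23, 1.22 and 1.30) and Grb10 (1.28, 1.26 and 1.36) spread about alike in all groups. Metastasis 2 was the lowest of the 3 for Dlk1, Igf2, Ndn and Mest and the highest for Peg3, Grb10 and Peg10, and for Cdkn1c it was level with metastasis 3 (22.5 each). Its summed fibroblast markers were 247 FPKM against 474 and 399 in metastases 1 and 3, and its summed macrophage markers were 215 against 366 and 231. Its islet and hepatocyte sums, 48220 and 6682, were close to those of metastases 1 (43973 and 6461) and 3 (48985 and 6351). Their part in the low Dlk1, Igf2 and Ndn of this library was not tested.

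Neighbours within the same imprinted clusters were compared next, since an imprinting control region can act on several genes at once. Of 28 listed neighbours 19 were tested. None passed in RHAMMB against N134 tumours, where 6 had an unadjusted p below 0.05 by limma, against 12.8% of all genes. In each comparison with metastases 2 passed as lower, beside 1.52% of all genes against RHAMMB tumours and 4.23% against N134 tumours. Slc22a18 passed as higher in both, but it entered the tested set only through the metastases, where it is high. The median differences of the 19 were -0.16, 0.01 and -0.11, against 0.01, -0.06 and -0.03 over all genes tested.

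Usp29, a deubiquitinase gene on chromosome 7 (6730578 to 6967219, plus strand), followed Peg3. It was at 35.5, 30.1 and 27.8 FPKM in N134 tumours 1 to 3, 22.0, 21.4 and 23.7 in RHAMMB tumours 1, 2 and 4, and 20.5, 22.5 and 20.9 in metastases 1 to 3. All samples of the N134-RHAMMB line were below all N134 tumours, as for Peg3, and the ratio of Peg3 to Usp29 stayed between 5.99 and 7.74 in all 9 libraries. Usp29 fell in metastases relative to N134 tumours (log2 difference -0.52, SE 0.12, limma adjusted p = 0.0161). This call was lost without N134 tumour 1 (0.0685), N134 tumour 2 (0.0510), metastasis 1 (0.0690) or metastasis 3 (0.0671). Its difference between RHAMMB and N134 tumours was -0.45 (limma adjusted p = 0.171). Zim1, a zinc finger gene on the other side of Peg3 that is expressed from the maternal allele, was at 29.1 ± 6.26, 25.7 ± 4.98 and 29.0 ± 9.91 FPKM in the 3 groups, which overlapped.

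Blcap, whose span holds Nnat and whose own imprinting is known from brain, was at 57.1 ± 4.44, 60.7 ± 4.37 and 49.0 ± 6.88 FPKM, with no call in any comparison. The ratio of Nnat to Blcap was 91.4, 91.8 and 106 in N134 tumours 1 to 3, 106, 109 and 89.1 in RHAMMB tumours 1, 2 and 4, and 66.0, 94.3 and 76.6 in metastases 1 to 3. Metastases 1 and 3 were therefore below the subcutaneous tumours in this ratio and metastasis 2 was within their range. The strand setting is not given, and whether Nnat and Blcap share reads was not tested. Next to Igf2, the insulin gene Ins2 was at 32691 ± 1824, 24106 ± 3797 and 37085 ± 2142 FPKM with no call, and its difference of metastases from RHAMMB tumours (0.63, limma adjusted p = 0.0868) passed without metastasis 2 (0.61, adjusted p = 0.0410). Th, the gene of tyrosine hydroxylase beyond Ins2, was at 178 ± 51.6, 113 ± 18.5 and 44.2 ± 15.3 FPKM, and it fell in metastases relative to RHAMMB tumours (-1.38, limma adjusted p = 0.00885) and N134 tumours (-2.0, limma adjusted p = 5.61e-04). The first of these was lost without RHAMMB tumours 2 and 4 (0.0865). Metastasis 2, low for Igf2, had 38131 FPKM of Ins2 against 34621 and 38504 in metastases 1 and 3.

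Copg2, a coat protein gene whose end overlaps that of Mest, was at 22.7, 24.1 and 23.0 FPKM in N134 tumours 1 to 3, 45.3, 27.5 and 46.9 in RHAMMB tumours 1, 2 and 4, and 17.8, 22.0 and 24.7 in metastases 1 to 3. It fell from RHAMMB tumours to metastases (-0.84, SE 0.20, limma adjusted p = 0.0276), a call lost without N134 tumour 1 (0.0503), RHAMMB tumour 1 (0.129) or 4 (0.112), or metastasis 1 (0.139), 2 (0.0525) or 3 (0.0561). Slc22a18, a transporter gene close to Cdkn1c, was at 0.193 ± 0.0642 and 0.117 ± 0.0355 FPKM in the subcutaneous groups and at 11.2 ± 2.02 in metastases (log2 differences 3.34 from N134 tumours and 3.44 from RHAMMB tumours, limma adjusted p = 1.37e-07 and 1.13e-07). A gene that enters in this way had to differ, so these p-values add nothing. Summed hepatocyte markers were higher in the same samples, and their part was not tested. Asb4, a neighbour of Peg10 on chromosome 6, was at 12.8 ± 0.811, 3.35 ± 1.18 and 6.06 ± 4.48 FPKM, and its difference of -1.70 between the subcutaneous groups did not pass (limma adjusted p = 0.15) and passed without metastasis 1 (0.0381).

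**Figure D3:**
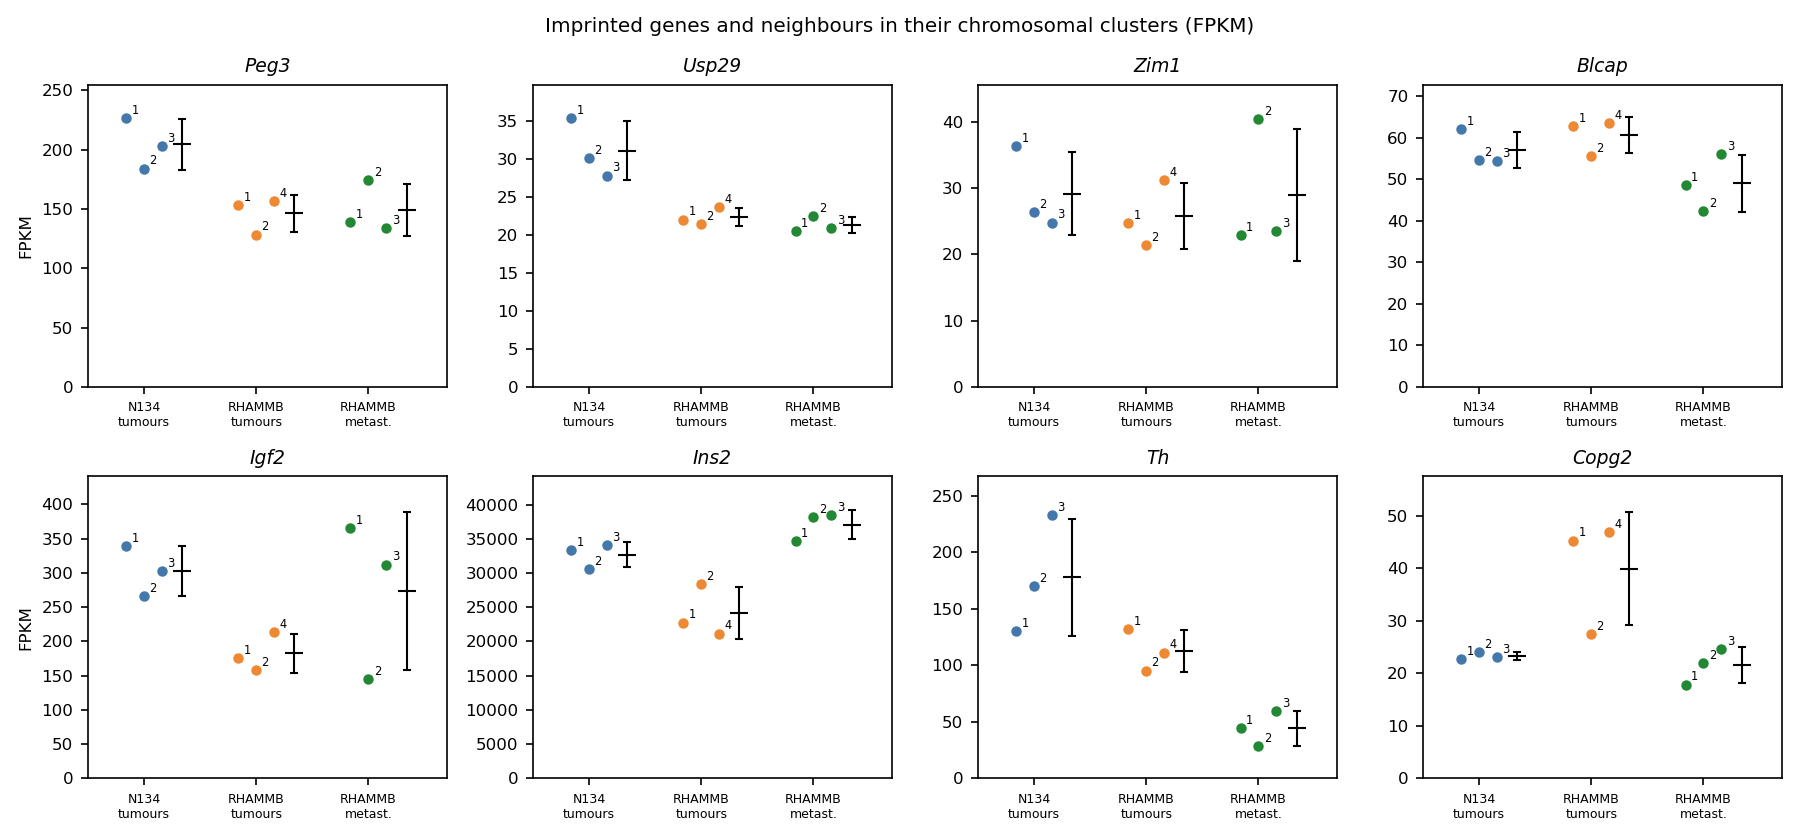
FPKM (vertical axis, linear, from 0, a separate scale for each gene) of Peg3 with its neighbours Usp29 and Zim1, of Blcap, which spans Nnat, of Igf2 with Ins2 and Th, and of Copg2, whose end overlaps Mest; points are libraries with their replicate number and bars the group mean and SD (n = 3 each). Peg3 and Usp29 are both highest in the N134 tumours (184 to 227 and 27.8 to 35.5), while Zim1 overlaps between all groups.

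Other imprinted genes, not among the listed neighbours, were listed for comparison. 21 of the 26 were tested, and 0 higher and 1 lower, 2 higher and 0 lower, and 1 higher and 1 lower passed in the 3 comparisons, beside 0.194%, 6.56% and 9.93% of all genes. Their medians were -0.09, -0.07 and 0.09. The one called between the subcutaneous groups was Dcn, the gene of the matrix proteoglycan decorin and itself a fibroblast marker, at 26.8 ± 2.11 FPKM in N134 tumours and 12.3 ± 2.29 in RHAMMB tumours (-1.07, limma adjusted p = 0.0365). It was lost when any 1 library of these 2 groups was left out, with adjusted p of 0.0619 to 0.215. Dcn was at 30.3 ± 5.15 FPKM in metastases, above RHAMMB tumours (1.23, limma adjusted p = 5.12e-04). Slc38a4, an amino acid transporter gene, was higher in metastases than in RHAMMB tumours (67.1 ± 6.90 against 35.4 ± 8.52 FPKM, limma adjusted p = 0.00459). Compared with N134 tumours, metastases had more Pon3, a paraoxonase gene (9.56 ± 0.728 against 3.97 ± 0.871 FPKM, limma adjusted p = 0.00262), and less Slc22a2, a cation transporter gene (0.630 ± 0.165 against 1.89 ± 0.311 FPKM, limma adjusted p = 0.0185). The Slc22a2 call was lost without N134 tumour 1 (0.0882) or 2 (0.0576) or without any 1 metastasis (0.0528 to 0.0823). Slc22a2 was at 0.498 to 0.815 FPKM in metastases and passed the filter only through the subcutaneous tumours, so its p-value adds little.

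Genes that set and keep imprints, such as the methyltransferases, the TET enzymes and the zinc finger proteins that guard methylated alleles, gave no call in any comparison by limma. 11 of the 16 were tested, with 1, 1 and 2 at an unadjusted p below 0.05, beside 12.8%, 16.7% and 21.4% of all genes. Tet1, which starts the removal of DNA methylation, was at 13.4 ± 1.31, 9.72 ± 0.926 and 9.34 ± 2.02 FPKM in N134 tumours, RHAMMB tumours and metastases (limma adjusted p = 0.329 and 0.103 against N134 tumours). Zfp445, a zinc finger protein that maintains imprints, was at 6.10 ± 0.759, 5.98 ± 0.484 and 8.45 ± 0.668 FPKM (limma adjusted p = 0.116 for metastases against RHAMMB tumours), which passed with median-of-ratios scaling (0.0364).

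The pathway of Igf2 and Grb10 was described by 20 genes of IGF signalling, of which 13 were tested. The receptor gene Igf1r lay below the filter. None of the 13 passed in RHAMMB against N134 tumours, where 6 had an unadjusted p below 0.05 by limma, beside 12.8% of all genes. There 11 of the 13 differences were below 0, with a median of -0.38. 3 were higher and 1 was lower in metastases against RHAMMB tumours, and 3 were higher and 2 lower in metastases against N134 tumours, with medians of 0.02 and -0.32. Of all genes tested, 6.56% and 9.93% were called in these 2 comparisons. The genes that rose in both comparisons with metastases were Igf1, Igfbp4 and Igfals, a ligand, a binding protein and the acid-labile subunit of the circulating complex, all of which are made by liver.

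Igf1, the second ligand, was at 6.75, 7.94 and 6.05 FPKM in N134 tumours 1 to 3, 3.01, 2.23 and 4.61 in RHAMMB tumours 1, 2 and 4, and 20.6, 20.9 and 18.0 in metastases 1 to 3. The 3 groups did not overlap, and Igf1 rose in metastases by 2.32 (SE 0.20, limma adjusted p = 1.79e-05) over RHAMMB tumours and by 1.40 (limma adjusted p = 9.24e-04) over N134 tumours. Between the subcutaneous groups the difference was -0.92 (limma adjusted p = 0.132). Igfbp4 was at 16.2 ± 4.76, 8.56 ± 2.13 and 43.7 ± 4.95 FPKM, higher in metastases by 2.24 and 1.41 (limma adjusted p = 4.66e-05 and 0.00164). Igfals was at 2.72 ± 0.224, 3.15 ± 0.640 and 7.80 ± 1.29 FPKM, higher by 1.09 and 1.23 (limma adjusted p = 0.00192 and 6.84e-04), and the first of its calls was lost without RHAMMB tumours 2 and 4 (0.124). All 14 hepatocyte markers were at 1 FPKM or more in every metastasis, and 6 and 7 of them in every N134 and every RHAMMB tumour, with the sums given above. Their part in the higher Igf1, Igfbp4 and Igfals was not tested.

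The binding proteins that were lower in metastases were Igfbp3 and Igfbp6. Igfbp6, which prefers IGF-II as a ligand, was at 4.81, 3.37 and 3.25 FPKM in N134 tumours 1 to 3, 1.51, 0.887 and 1.86 in RHAMMB tumours 1, 2 and 4, and 0.748, 0.201 and 0.912 in metastases 1 to 3. It fell in metastases relative to N134 tumours by 1.58 on the log2 scale (limma adjusted p = 0.00115). Igfbp6 was below 1 FPKM in every metastasis and passed the filter only through the subcutaneous tumours, so this p-value adds little. The difference between RHAMMB and N134 tumours, -1.0 on the log2 scale, did not pass (limma adjusted p = 0.141) and passed without metastasis 2 (0.0434). Igfbp3, the main carrier of circulating IGFs, was at 57.7 ± 8.38, 44.4 ± 7.53 and 29.4 ± 2.0 FPKM and fell from RHAMMB tumours to metastases (-0.57, limma adjusted p = 0.0482), a call lost when any 1 library other than N134 tumour 3 and RHAMMB tumour 2 was left out, with adjusted p of 0.0537 to 0.211. Igfbp3 was also lower in metastases than in N134 tumours, without overlap (-0.94, limma adjusted p = 0.00177), and that call was not followed through the alternatives. The receptors that bind IGF-II had similar means in the 3 groups: Igf2r, the clearance receptor, at 31.4 ± 4.05, 28.8 ± 4.09 and 26.9 ± 3.23 FPKM, and Insr, the insulin receptor, at 13.5 ± 2.02, 13.7 ± 2.32 and 14.9 ± 1.48. Their groups overlapped in all 3 comparisons, with log2 differences of -0.13, -0.09 and -0.22 (SE 0.14) for Igf2r and 0.02, 0.12 and 0.14 (SE 0.16) for Insr.

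**Figure D4:**
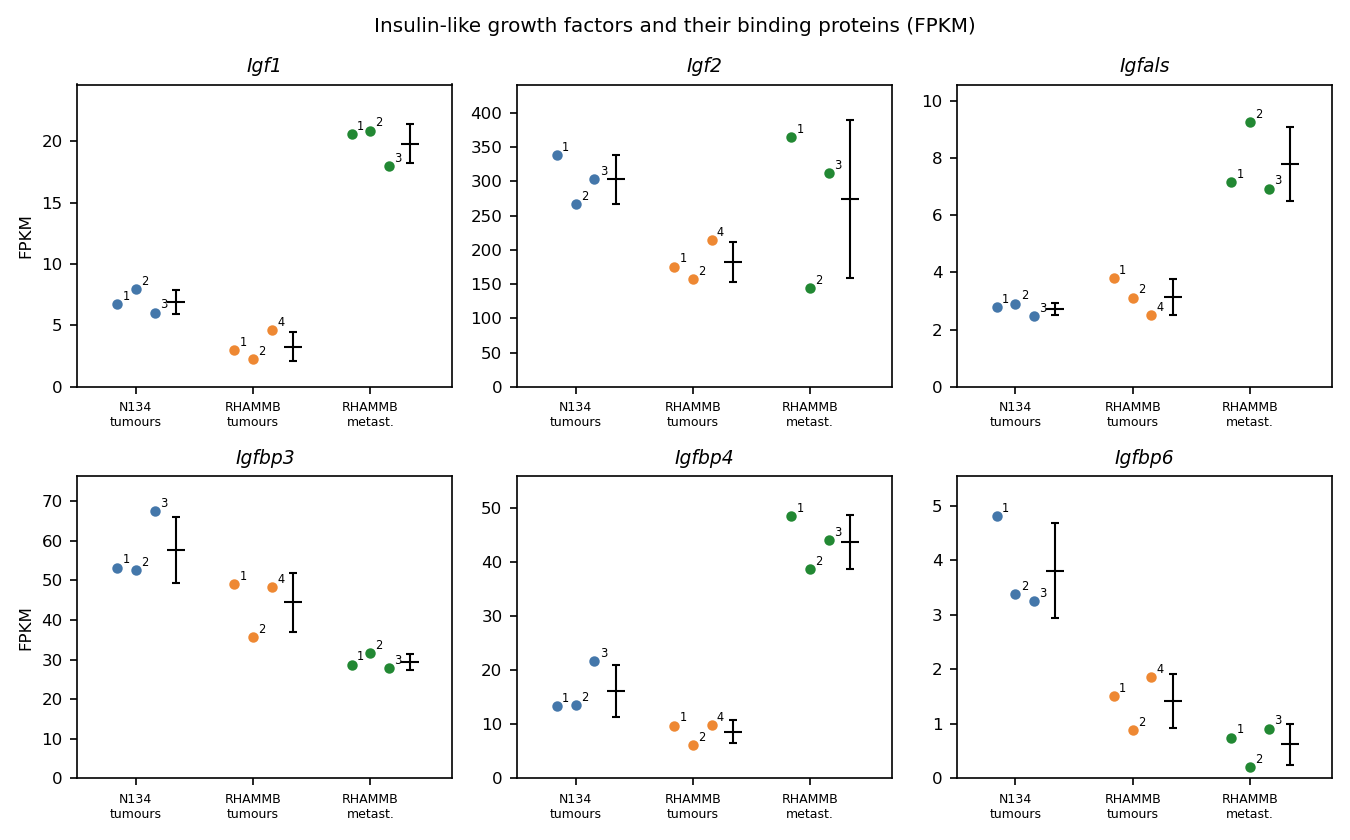
FPKM (vertical axis, linear, from 0, a separate scale for each gene) of Igf1, Igf2, Igfals, Igfbp3, Igfbp4 and Igfbp6 in the 9 libraries; points are libraries with their replicate number and bars the group mean and SD (n = 3 each). Igf1 is at 18.0 to 20.9 in metastases against at most 7.94 elsewhere, and Igfbp6 is highest in the N134 tumours (3.25 to 4.81).

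All 13 islet markers were tested, and 0, 1 and 1 of them passed in the 3 comparisons, beside 0.194%, 6.56% and 9.93% of all genes. Their medians were 0.13, 0.02 and 0.02 over genes that went both ways. The one that passed was Chgb, the gene of a granule protein, at 427 ± 26.1, 552 ± 115 and 215 ± 49.9 FPKM, which fell in metastases relative to RHAMMB tumours (-1.36, limma adjusted p = 0.00102) and N134 tumours (-1.01, limma adjusted p = 0.00697). Ins1, the other insulin gene, was at 1670 ± 340 FPKM in N134 tumours and 3758 ± 612 in RHAMMB tumours, which did not overlap (log2 difference 1.17, limma adjusted p = 0.366), and at 2649, 824 and 4947 in metastases 1 to 3. Pcsk2, a prohormone convertase gene, was at 493 ± 37.6 and 748 ± 40.9 FPKM in N134 and RHAMMB tumours, also without overlap (0.60, limma adjusted p = 0.223). Without metastasis 2 both of these differences passed (adjusted p = 0.0404 for Ins1 and 0.0166 for Pcsk2). Isl1, an islet transcription factor gene, was at 78.4 ± 2.98 FPKM in N134 tumours and 58.5 ± 39.7 in metastases, a difference of -0.62 (limma adjusted p = 0.369) that became -1.13 (adjusted p = 0.00225) without metastasis 2, which had 103.7 FPKM.

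For each tested member the genes most like it were listed by Pearson correlation of log2(FPKM + 1) over the 9 libraries, among genes with a mean of at least 5 FPKM. These values are descriptions: the 9 libraries fall into 3 groups, and the highest of 9260 correlations are high by selection. Nearest to Nnat were Rbbp8 (r = 0.965), Snrpd1 (0.960), Pax4 (0.948), Col17a1 (0.944) and Ffar4 (0.944), of which Pax4 encodes a transcription factor of beta cell development. Nearest to Plagl1 were Nqo1 (0.981), which encodes a quinone reductase, Zdhhc17 (0.979) and Prpf4b (0.975). Peg3 was closest to Rala (0.963), Lemd3 (0.956) and Tmem263 (0.954).

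Igf2 was closest to Lhfpl4 (0.979), Amigo1 (0.971) and Col4a1 (0.955), a collagen gene of basement membranes. Dlk1 was nearest to Atg14 (0.985), Pdlim7 (0.980) and Cdh23 (0.973), and Ndn to Tceal3 (0.992), Tgoln1 (0.980) and Pik3c2a (0.936). The likeness was weaker for Cdkn1c (Ccdc124 0.932, Tjp1 0.915 and Cep162 0.908), Grb10 (Glcci1 0.947, Myo9a 0.913 and Pon2 0.897) and Mest (Mis18a 0.907, Lztfl1 0.887 and Pdcd2l 0.864). Among the members, the highest correlations over the 9 libraries were those of Igf2 with Ndn (0.842) and Dlk1 (0.840) and of Plagl1 with Peg3 (0.833).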

How the data were processed

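RNA was extracted with the miRNeasy and QIAshredder kits, per the labels' protocols. The library kit, like the strand setting, is not given in the sources used here. The GRCm38 build and the tools Cufflinks 2.1.1, STAR 2.5.2 and bcl2fastq 2.19 are named, without roles, per the submitters' processing notes. The authors deposited FPKM values of 22053 protein-coding rows, per the file headers. These are length and library normalized, so a value also depends on what the rest of the library holds.

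Dropping 7 rows with a failed estimate and 102 repeats of a symbol left 21944 genes. The table's starts plus 1 equal the GENCODE M21 starts of all 10 members, and coordinates are given so. Depth was estimated from the FPKM of single fragments in transcripts of 2000 to 6000 nucleotides, where 1 fragment in 2 kb was worth 0.0276 to 0.0341 FPKM.

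Groups were compared with limma 3.58.1 (R 4.3.3) on log2(FPKM + 1), which understates differences of low genes. The fit covered all 9 libraries (6 residual degrees of freedom) with an intensity trend and 2-sided Benjamini-Hochberg adjustment over the 12854 genes at 1 FPKM or more in at least 3 libraries; adjusted p below 0.05 was called. Exact tests of 3 against 3 samples reach p = 0.1 at best and were left aside. The code was tested on simulated data. The main fit did not pair samples by replicate number.

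The members, lists, tests and the rule for named genes were chosen with earlier results of these data known. All members are named; from each other list the genes that pass, at most 4 per comparison, or else the 2 with the largest differences, and cluster neighbours beside their member; the text leaves out some of these from the marker lists. Igf2r and Insr were added after their values were seen. The 3 genes most like each member are named (5 for Nnat). Alternatives varied the pseudocount, filter, scaling, variance model, weights, block and libraries. Figures were drawn in Python 3.11.15.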

Additional observations from a re-analysis of the deposited data

How the results depend on the processing

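20 alternatives were run. Plagl1 in metastases against N134 tumours passed in all 20, and Nnat in metastases against RHAMMB tumours in 12. Over all members and alternatives, 491 differences kept their sign and their side of the threshold, 22 came to pass, 8 no longer passed and 19 changed sign. With 3 libraries a group and 6 residual degrees of freedom, and with values of Peg10 worth 3.91 to 59.3 fragments, small differences are not detectable at this depth and number. Where a call or sign changed, the cause was not tested. The members called were 0 in RHAMMB against N134 tumours (comparison A), 1 in metastases against RHAMMB tumours (B) and 1 in metastases against N134 tumours (C), and all genes called were 25, 843 and 1276.

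Members called in B became 0 with no filter, with median-of-ratios scaling, with only the 2 groups compared and without RHAMMB tumours 2 and 4. In C they became 2 with quantile normalization and with no intensity trend. With only the 2 groups compared, 3 members and 263 genes were called in A. Library weights gave 4, 3 and 3 members, and 2629 and 1950 genes in A and B. A minimum of 5 FPKM gave 515 and 776 genes in B and C, and leaving out RHAMMB tumours 2 and 4 gave 1 and 507 in A and B. Quantile normalization moved the split of higher and lower calls in B from 648 and 195 to 630 and 314. Leaving out 1 library at a time gave 0 to 3, 0 to 3 and 1 to 3 members, and 0 to 191, 356 to 775 and 619 to 1174 genes; the lowest of B and C came without metastasis 3 and the 191 without metastasis 2.

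The replicate number as a block gave 1 gene in A and 0 members in B, where Nnat was at -0.80 with an adjusted p of 0.0558, and Usp29 changed sign to 0.016. Under it Slc38a4 (adjusted p 0.0904), Copg2 (0.172) and Igfbp3 (0.217) in B and Dcn (0.103) in A no longer passed. Correlations of deviations of same-numbered samples were -0.00270 to 0.102, with 1 of 7 pairs over 0.1. Pairs of samples with different numbers reached both lower and higher values. The labels do not state a pairing, and these correlations cannot decide whether the numbers pair the samples.

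Differences that changed sign were those below. In metastases against RHAMMB tumours, Dlk1 was at 0.75 with library weights, 0.12 without both RHAMMB tumours 2 and 4, and -0.71 (without metastasis 3) to 0.87 (without metastasis 2) when 1 library was left out. Peg3 was at -0.12 with weights, -0.051 without both tumours, and -0.094 (without metastasis 2) to 0.097 with 1 library left out. Mest was at 0.12 with weights, 0.057 without both tumours, and -0.32 to 0.052 with 1 library left out. Ndn ran from -0.25 without metastasis 1 to 0.87 without metastasis 2. Zim1 was at -0.032 with weights and -0.12 (without metastasis 2) to 0.27 with 1 library left out, and Sec11a was at 0.038 without both tumours. In metastases against N134 tumours, weights gave 0.099 for Igf2, 0.43 for Ndn and -0.17 for Cdkn1c. With 1 library left out Igf2 ran from -0.50 to 0.16 (without metastasis 2), Ndn from -0.74 to 0.38 (without metastasis 2), Cdkn1c from -0.10 (without metastasis 2 or 3) to 0.29 and Zim1 from -0.29 to 0.13 (without N134 tumour 1). Zim1 was at 0.0030 with median-of-ratios scaling.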
